A study of Homo sapiens with 2 samples.

Results

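E2F factors and the RB family form the switch between resting and dividing cells. Their transcripts were compared in a sorafenib-resistant and a parental culture, both labelled HepG2, a human liver cancer line. The resistant cells, whose genotype label is sorafenib resistance and whose treatment label is sorafenib, had been selected in stepwise rising drug, starting at 2.5 µM and raised by 0.5 µM at a time to 7 µM. Sorafenib is an inhibitor of several kinases given for liver cancer. The parental cells carry the genotype label WT and were untreated. By their labels, both cultures share the parent line and DMEM with fetal bovine serum. The labels do not say whether the drug was present at harvest, so resistance, drug exposure and separate culture cannot be told apart. Each culture gave 1 RNA library, so no value has an SD or a test, and every interval covers counting error only. The 10 genes (E2F1 to E2F8, RB1 and RBL1) were taken by symbol from a table of 50868 genes, and each matched 1 entry.

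E2F proteins bind DNA near the start of genes for DNA synthesis and cell division, most of them as pairs with a DP protein. E2F1, E2F2 and E2F3 mainly activate these genes, whereas E2F4 and E2F5 mainly repress them together with pocket proteins. E2F6 represses without a pocket protein, within a variant Polycomb complex, and E2F7 and E2F8 are atypical repressors that bind DNA without DP. RB1 encodes the retinoblastoma protein, the pocket protein that holds the activator E2Fs silent until cyclin-dependent kinases phosphorylate it. RBL1 encodes a related pocket protein that works mainly with E2F4 and E2F5.

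The 3 activator genes were all lower in the resistant library, E2F3 most of all, and no difference of the repressor or atypical E2Fs was resolved by counting. E2F3 stood at 0.503-fold the parental level (95% interval 0.468 to 0.540), E2F1 at 0.756-fold (0.682 to 0.837) and E2F2 at 0.770-fold (0.694 to 0.854). RB1 stood at 0.831-fold (0.779 to 0.887). The other 6 genes had intervals that included 1.

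The resistant library held 16811907 counts and the parental library 18067146 counts. A gene was counted as measured when its larger CPM (count scaled to library size with TMM factors) was at least 1, which held for 14686 genes and all 10 members. Defining markers of hepatocytes, several of which HepG2 cells are known to express, were absent. ALB, AFP, TTR, SERPINA1, APOA1, APOB, FGA, FGB and FOXA2, which are 9 of 10 marker genes, had 0 counts in both libraries, and the tenth, HNF4A, had 2 counts in each. Of 6 genes of simple epithelium 4 were measured, with summed levels of 4005 CPM in the resistant and 3238 CPM in the parental library. Of these sums KRT7 alone gave 2516 CPM in the resistant and 1892 CPM in the parental library. EPCAM had 0 counts in both, and KRT19 was under 1 CPM in both. CDH1, at 1.19 CPM in the resistant and 0.276 CPM in the parental library, was measured through the resistant library only. Of 6 fibroblast genes 4 were measured, at 369.6 and 369.0 CPM in the same order, with COL1A2 and PDGFRA at 0. The sums were close, but LUM stood at 12.9 CPM in the resistant and 5.13 CPM in the parental library, and COL3A1 at 195 and 217 CPM in the same order. Markers of blood cells summed to under 1 CPM in each library, and those of endothelium to 4.71 CPM in the resistant and 1.82 CPM in the parental library. Most of the endothelial sums came from CDH5, at 4.30 and 1.10 CPM in the same order, the 1 measured gene of 4. VWF went the other way, with 0 counts in the resistant and 5 counts in the parental library. Whether these differences play a part in the values below was not tested. In bulk RNA, fewer cells of a type and less RNA per cell cannot be told apart. Resistant and parental therefore name the libraries as labelled, and whether the cells are HepG2 could not be settled from these data.

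E2F genes are known to be controlled by E2F proteins themselves, so the sequence before the start of the members shows which of them carry the motif of their own family. RefSeq promoter sequences (build GRCh38.p14) were matched for 8 of the 10 genes; E2F5 and E2F8 had none. The RB1 entry belongs to a start near the 3′ end of the gene, so the sequence before the 5′ start of RB1 was not searched. The textbook E2F motif was searched in the 250 bases before each start, on both strands, as TTTCCCGC, TTTCGCGC, TTTGCCGC or TTTGGCGC. It was found in 4 members (E2F1, E2F2, E2F3 and RBL1) and in 2.79% of 35116 promoter entries. The shorter words TTTCGCG and TTGGCGC, which overlap that motif and were chosen after the sequences were seen, stood together in the same 4 members and in 0.0940% of all entries. The 120 bases before the start of these 4 genes are shown 5′ to 3′, with every match in capitals. They lie on the plus strand at chr6:20401759-20401878 for E2F3, and on the minus strand at chr20:33686386-33686505 for E2F1, chr1:23531234-23531353 for E2F2 and chr20:37095998-37096117 for RBL1.
E2F3: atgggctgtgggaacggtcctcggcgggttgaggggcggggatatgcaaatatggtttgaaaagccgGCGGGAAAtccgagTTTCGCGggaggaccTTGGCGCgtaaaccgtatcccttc
E2F1: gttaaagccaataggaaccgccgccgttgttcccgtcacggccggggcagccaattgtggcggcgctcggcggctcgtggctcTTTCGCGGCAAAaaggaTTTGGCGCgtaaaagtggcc
E2F2: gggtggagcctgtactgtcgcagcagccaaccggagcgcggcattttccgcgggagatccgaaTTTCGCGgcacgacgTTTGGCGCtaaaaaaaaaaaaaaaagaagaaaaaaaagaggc
RBL1: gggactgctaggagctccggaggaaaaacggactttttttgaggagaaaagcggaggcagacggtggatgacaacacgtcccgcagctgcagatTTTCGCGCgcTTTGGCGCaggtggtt

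In all 4 sequences the word TTTCGCG comes first and TTGGCGC follows, and every match lies within 57 bases of the start. In E2F1 the first word runs into a match on the other strand, which makes the longer capital run. E2F3 holds a further match on the other strand, upstream of the pair. A match describes letters, and no binding was measured here. E2F3 has a second RefSeq start downstream, the known origin of a shorter E2F3 form, and none of these words stood before it; the deposited counts are per gene and do not separate the forms.

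The E2F3 gene (ENSG00000112242; chromosome 6, 20401906 to 20493715, plus strand, GRCh38) had 1126 counts in the resistant and 2420 counts in the parental library. These were 67.2 CPM in the resistant and 134 CPM in the parental library. E2F3 had the lowest log2 ratio of the members, -0.98, where 1 CPM was added to each library's value before the ratio (resistant over parental) was taken. Only 158 of 14686 measured genes, or 1.08%, had a lower log2 ratio. In the authors' deposited table the log2 fold change of E2F3 was -0.9999, with no UP or DOWN call. No gene shared exons with E2F3. The intronic transcript E2F3-IT1 within it had 0 counts in the resistant and 2 counts in the parental library. The 2 measured genes within 1 Mb, MBOAT1 and CDKAL1, had log2 ratios of 0.06 and 0.04, so the lower count was not shared by its neighbours.

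E2F1 (ENSG00000101412; chromosome 20, 33675683 to 33686404, minus strand) had 641 counts in the resistant library, against 917 counts in the parental library, or 38.2 and 50.6 CPM in the same order. It is the activator best known for also driving cell death genes. Its log2 ratio of -0.40 was undercut by 8.21% of measured genes. E2F2 (ENSG00000007968; chromosome 1, 23506430 to 23531220, minus strand) had 626 counts in the resistant and 879 counts in the parental library, or 37.3 and 48.5 CPM. Its log2 ratio was -0.37, with 9.21% of measured genes lower. Both therefore lay within the range of the middle 95% of measured genes, which ran from -0.71 to 0.78, and E2F3 lay outside it. Counts of the 3 activators together were 0.614-fold (0.583 to 0.645) the parental level, with 2393 in the resistant and 4216 in the parental library.

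**Figure D1:**
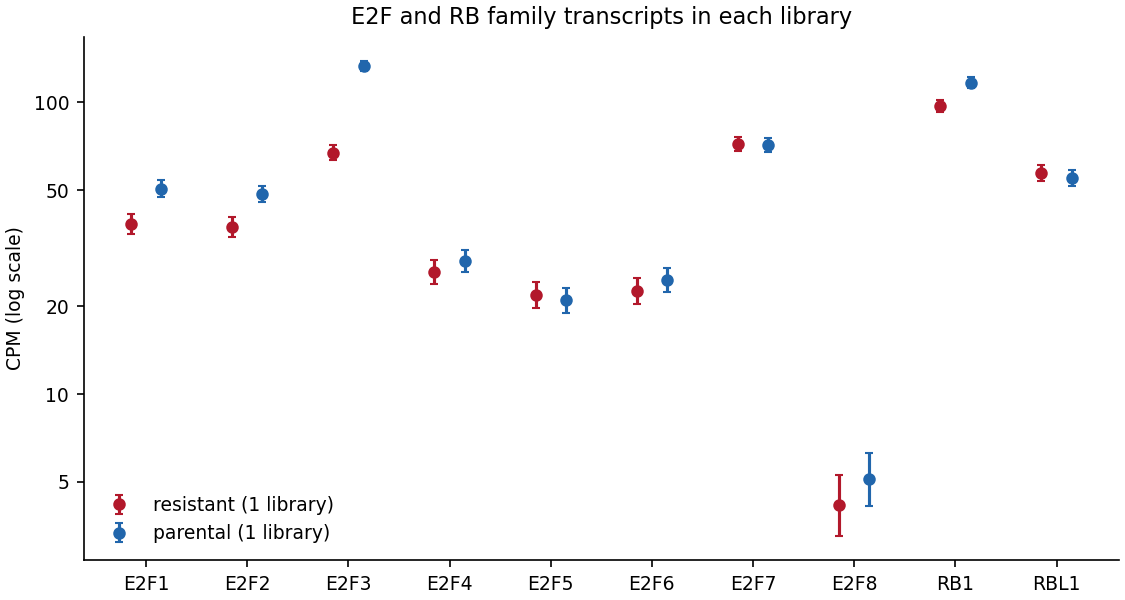
Level of each gene in CPM (log axis) in the resistant library (red, left of each pair) and the parental library (blue, right), with exact Poisson 95% intervals as bars. E2F3 shows the widest gap, at 67.2 CPM in the resistant and 134 CPM in the parental library, and E2F8 is the lowest gene in both.

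The repressor E2Fs had folds between 0.916 and 1.04, each with an interval that included 1. E2F4 (chromosome 16, 67192169 to 67198918, plus strand), the main E2F of many resting cells, had 441 counts in the resistant and 517 counts in the parental library, a fold of 0.922 (0.810 to 1.05). E2F5 (chromosome 8, 85177225 to 85217158, plus strand) had 367 counts in the resistant and 380 counts in the parental library, a fold of 1.04 (0.902 to 1.21). Exons of RBIS overlap E2F5 on the opposite strand, with 385 counts in the resistant and 424 counts in the parental library. No source used here states whether counting was by strand, so the E2F5 value is uncertain. E2F6 (chromosome 2, 11444375 to 11466177, minus strand) had 378 counts in the resistant and 446 counts in the parental library, at 0.916-fold (0.797 to 1.05). For these 3 genes a difference was not detectable at this depth.

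The atypical E2Fs showed no detectable difference between the libraries. E2F7 (chromosome 12, 77021247 to 77065580, minus strand) had 1209 counts in the resistant and 1296 counts in the parental library. At 72.1 CPM in the resistant and 71.5 CPM in the parental library it had a fold of 1.01 (0.932 to 1.09), the narrowest interval among the E2F genes that included 1. E2F8 (chromosome 11, 19224063 to 19241620, minus strand) had 70 counts in the resistant and 93 counts in the parental library. Its fold of 0.814 (0.588 to 1.12) was numerically below that of RB1, but its few counts leave an interval that includes 1.

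The RB1 transcript was lower in the resistant library and that of RBL1 was not. RB1 (ENSG00000139687; chromosome 13, 48303751 to 48481986, plus strand) had 1626 counts in the resistant and 2115 counts in the parental library, or 97.0 and 117 CPM. Its log2 ratio was -0.26, and 14.5% of measured genes were lower. Of the genes within RB1, none shared its exons, and the pseudogene PCNPP5 on the opposite strand, with 39 counts in the resistant and 17 counts in the parental library, was the only one with counts. RBL1 (ENSG00000080839; chromosome 20, 36996349 to 37095995, minus strand) had 963 counts in the resistant and 1000 counts in the parental library. Its fold was 1.04 (0.952 to 1.14). Exons of AL136172.1 overlap it on the opposite strand, with 9 counts in the resistant and 7 counts in the parental library. RBL1 carried the paired words before its start, as E2F1, E2F2 and E2F3 did. Its log2 ratio was 0.06, with a fold interval that included 1. Whether the words bear on any of these values was not tested.

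No member was at least 2-fold lower or higher on the log2 ratio scale, the larger size rule. Among all measured genes 0.994% were at least 2-fold lower and 1.31% at least 2-fold higher. On the same scale, at least 1.2-fold lower were 4 of 10 members (E2F1, E2F2, E2F3 and RB1), against 14.6% of all measured genes. None was at least 1.2-fold higher, against 15.9% of measured genes. The same 4 members had a counting interval wholly below 1, as had 21.2% of measured genes, and none had an interval wholly above 1, against 21.1%. RB1 lay just past the 1.2-fold rule and E2F8, at a log2 ratio of -0.24, just short of it. E2F3, at -0.98, lay just short of the 2-fold rule, and its fold interval of 0.468 to 0.540 includes a 2-fold difference. The median log2 ratio of the 10 members was -0.18, with 7 negative and 3 positive values, and that of all measured genes was -0.0018.

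**Figure D2:**
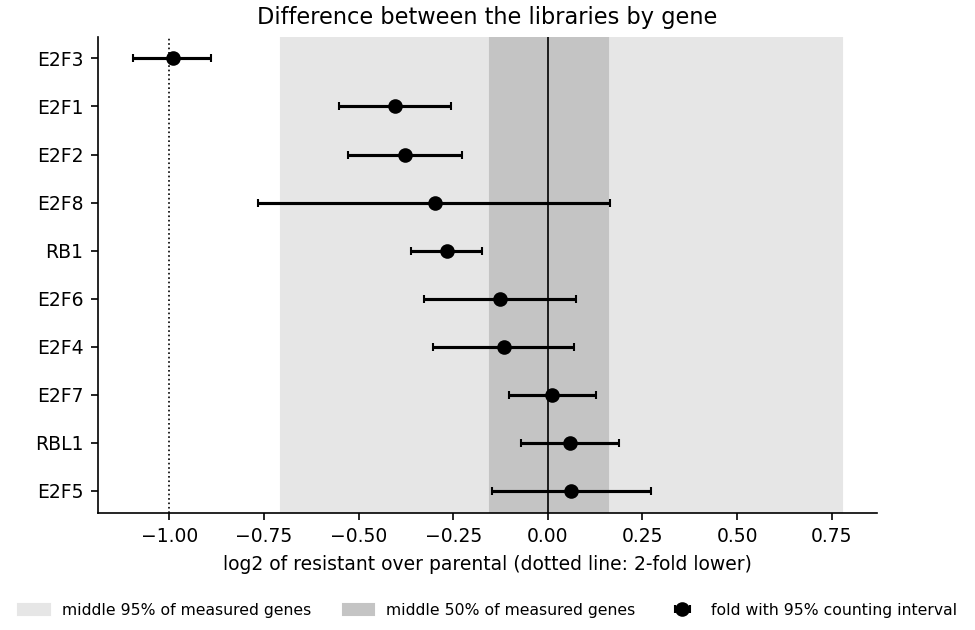
Log2 of the resistant over the parental CPM for each gene (points) with the 95% counting interval (bars), ordered by fold. Shaded bands give the middle 50% and middle 95% of log2 ratios of the 14686 measured genes. The points have nothing added to the CPM, whereas the bands use the log2 ratio with 1 CPM added. E2F3 lies outside both bands, beside the dotted line at 2-fold lower.

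Levels of different genes can be compared only per length, and the length used changes their order. The deposited FPKM divides by the summed length of all distinct annotated exons, so bases in overlapping exons count more than once. This held for 9 of the 10 members, all but RB1, and within 0.5% for 86.0% of 12186 genes with at least 50 counts in each library, by comparison with GENCODE 29. For E2F1 the denominator equals the merged exon length of 2503 bases. For E2F3 it is 12634 bases, against 5164 bases of merged exons, and for E2F4 it is 9300 bases, against 3582 bases. The deposited FPKM of E2F3, 5.30 in the resistant and 10.6 in the parental library, is therefore 2.45 times below its value per merged exon. Because both libraries share the denominator, no fold of FPKM between them is affected.

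Counted as CPM per kilobase of merged exons (RPKM over merged exons), E2F3 was the highest of the 10 genes in the parental library and the third in the resistant library. The order in the resistant library was E2F1 at 15.3, RB1 within 14.3 to 15.8, E2F3 at 13.0, E2F7 at 11.4 and RBL1 at 9.65 RPKM. Below these stood E2F4 at 7.34, E2F2 at 6.84, E2F6 at 5.54, E2F5 at 3.69 and E2F8 at 1.01 RPKM. In the parental library E2F3 stood at 25.9, E2F1 at 20.2, RB1 at 18.1, E2F7 at 11.3 and RBL1 at 9.27 RPKM. E2F2 followed at 8.89, E2F4 at 7.97, E2F6 at 6.05, E2F5 at 3.54 and E2F8 at 1.24 RPKM. Neighbours whose counting intervals overlap were E2F1 with RB1 and E2F4 with E2F2 in the resistant library, and RBL1 with E2F2 and E2F2 with E2F4 in the parental library. The merged length includes every annotated exon, whether or not these cells use it.

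**Figure D3:**
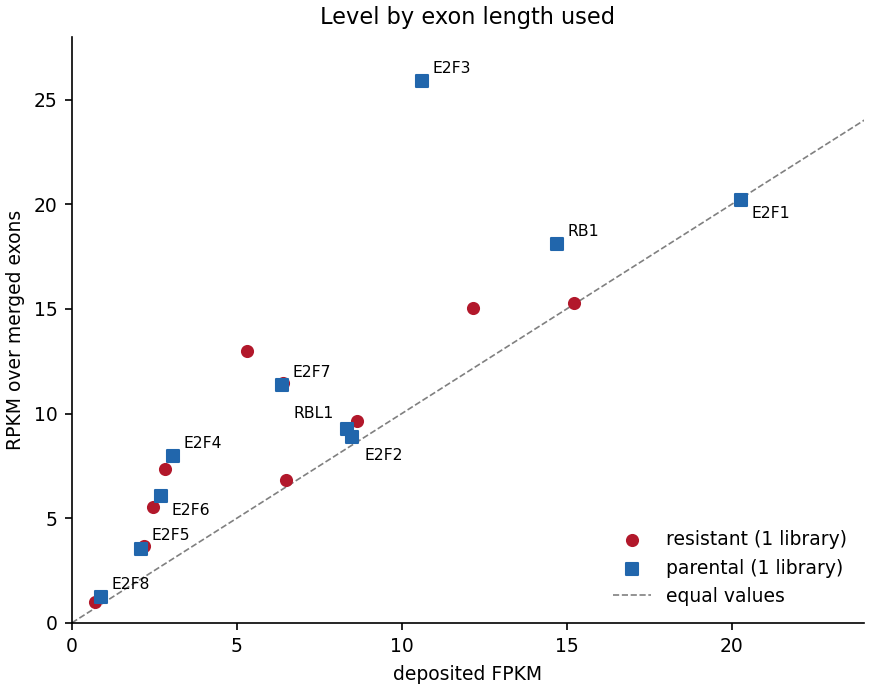
Level of each gene by the deposited FPKM (horizontal axis) and by RPKM over merged exons (vertical axis) in the resistant (red circles) and parental library (blue squares, with gene names). E2F1 lies on the dashed line of equal values, and E2F3, E2F4 and E2F6 lie farthest above it in proportion, by factors of 2.45, 2.60 and 2.24.

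The make-up of the E2F transcript pool differed between the libraries through the activators. Summed over the 8 E2F genes, RPKM over merged exons was 64.2 in the resistant and 85.1 in the parental library. E2F1 to E2F3 made up 54.7% of the resistant sum and 64.6% of the parental sum. E2F3 alone made up 20.3% of the resistant sum and 30.4% of the parental sum, whereas E2F1 kept 23.8% in both. The atypical genes E2F7 and E2F8 made up 19.4% of the resistant and 14.8% of the parental sum, and E2F4 with E2F5 17.2% and 13.5% in the same order. Those larger shares came from the smaller total, since the summed levels of E2F7 and E2F8 were 12.5 RPKM in the resistant and 12.6 RPKM in the parental library.

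**Figure D4:**
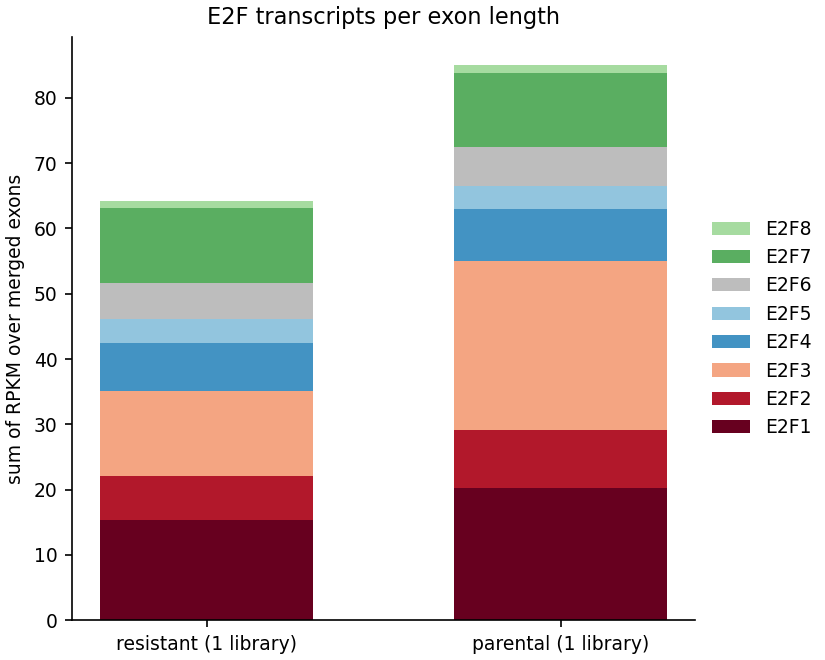
Stacked RPKM over merged exons of the 8 E2F genes in the resistant (left) and parental library (right), 1 library each. The resistant bar is shorter, 64.2 against 85.1, mostly through the E2F3, E2F1 and E2F2 segments.

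The partners and regulators of the family were read from 11 lists of 144 symbols, all found in the table. E2F factors bind DNA with the DP proteins, and neither measured DP gene was 1.2-fold different. TFDP1 had 2799 counts in the resistant and 2909 counts in the parental library (1.04-fold, 0.987 to 1.10). TFDP2 stood at 0.886-fold (0.812 to 0.967), and TFDP3 had 0 counts in both.

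Genes of the kinases that inactivate RB were higher in the D-type arm and at or below the parental level in the E-type arm. CDK6, a catalytic partner of D-type cyclins, had 8068 counts in the resistant and 5585 counts in the parental library, or 1.56-fold (1.51 to 1.62). CCND1, the cyclin D1 gene, had 4380 counts in the resistant and 3301 counts in the parental library, or 1.43-fold, and CDK4, the other catalytic partner, at 1.33-fold (1.26 to 1.41). On the log2 ratio scale, these 3 of 7 measured genes were at least 1.2-fold higher, against 15.9% of all measured genes. None was at least 1.2-fold lower on that scale, against 14.6%. In the E-type arm, which acts later in G1, CCNE1 had 81 counts in the resistant and 108 counts in the parental library (0.811-fold, 0.600 to 1.09). Its log2 ratio, which adds 1 CPM to both libraries, was -0.255 and fell just short of the 1.2-fold rule. CCNE2 was at 0.855-fold (0.760 to 0.962) and CDK2 at 0.896-fold (0.840 to 0.957). The median of this list was 0.25, and CCND2 had 0 counts in both libraries.

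Among 7 CDK inhibitor genes, 6 had negative log2 ratios, against 50.3% of all measured genes. At least 1.2-fold lower were 2 of the 7, against 14.6%. Counting intervals lay wholly below 1 for 2 of the 7 (28.6%), against 21.2% of all measured genes. For 1 gene the interval lay wholly above 1, against 21.1%. The other intervals included 1. CDKN1B, which encodes an inhibitor of cyclin E-CDK2 complexes, was at 0.805-fold (0.752 to 0.861), and CDKN2C, an inhibitor of CDK4 and CDK6, at 0.811-fold (0.758 to 0.867). CDKN1A stood at 0.937-fold (0.862 to 1.02). CDKN2A was the exception, with 3287 counts in the resistant and 1927 counts in the parental library (1.84-fold, 1.74 to 1.95). Its locus encodes both a CDK4 and CDK6 inhibitor and the unrelated ARF protein, which gene counts do not separate.

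The MuvB core joins E2F4 and a pocket protein in the DREAM complex, which silences cell cycle genes in resting cells, and later joins MYBL2 to activate mitotic genes. Of 8 measured genes 3 were at least 1.2-fold lower, against 14.6% of all measured genes. They are core subunits, though not the whole core. LIN52 had 140 counts in the resistant and 216 counts in the parental library (0.701-fold, 0.562 to 0.871), LIN9 was at 0.824-fold (0.748 to 0.908) and LIN37 at 0.611-fold (0.433 to 0.857). LIN37 shares exons with AD000671.1, and their summed counts had a log2 ratio of -0.35, against -0.57 for LIN37 alone. MYBL2 stood at 1.03-fold (0.988 to 1.08). The list median was -0.09.

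Corepressors that pocket proteins recruit were close to even, with a median of -0.05 over 14 genes. Of these none was at least 1.2-fold higher, against 15.9% of all measured genes, and 1 was at least 1.2-fold lower, against 14.6%. That gene was SUV39H1, a histone H3 methyltransferase that RB recruits, with 529 counts in the resistant and 942 counts in the parental library (0.607-fold, 0.545 to 0.676). HDAC3, a histone deacetylase gene, was at 0.848-fold (0.752 to 0.954). ARID4A, which encodes an RB-binding protein, had 893 counts in the resistant and 818 counts in the parental library, or 1.18-fold. In the Polycomb complex of E2F6 the median was 0.10 over 12 genes. Its DNA-binding partner MAX had 848 counts in the resistant and 412 counts in the parental library (2.22-fold, 1.98 to 2.51). MAX was the 1 gene of this list at least 1.2-fold different. Among all measured genes 14.6% were that much lower and 15.9% that much higher. L3MBTL2 was at 1.18-fold (1.05 to 1.33), EHMT1, a histone methyltransferase gene, at 1.12-fold (1.03 to 1.21), PCGF6 at 0.966-fold (0.852 to 1.09) and MGA at 0.982-fold (0.931 to 1.04).

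Germline genes that E2F6 represses in mouse cells were mostly silent in both libraries. Of 12 genes 6 had 0 counts in both and 3 were measured. TDRKH had 368 counts in the resistant and 358 counts in the parental library. MOV10L1 had 31 counts in the resistant and 60 counts in the parental library, and SYCE2 had 29 and 16 counts in the same order. These were the 1 gene at least 1.2-fold lower and the 1 gene at least 1.2-fold higher. The shares of all measured genes were 14.6% and 15.9% in the same order.

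Genes for turnover and dephosphorylation of E2F and RB proteins had a median of -0.01 over 12 genes, and 1 was at least 1.2-fold different. Among all measured genes 14.6% were that much lower and 15.9% that much higher. SKP2, which encodes the substrate receptor of a ubiquitin ligase that targets CDKN1B and E2F1 proteins, was at 1.25-fold (1.14 to 1.36). FBXW7, the receptor for cyclin E, was at 1.19-fold (1.03 to 1.38), and PPP1CB, a catalytic subunit gene of protein phosphatase 1, at 0.905-fold (0.875 to 0.935). PPP1CB shares exons with SPDYA, which had 10 counts in the resistant and 7 counts in the parental library.

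G1/S target genes of the E2F factors leaned lower, by small amounts. Of 36 G1/S genes for DNA synthesis, 27 had negative log2 ratios, against 50.3% of all measured genes, and the median was -0.11. Only 5 (13.9%) were at least 1.2-fold lower, a share near the 14.6% of all measured genes. A counting interval wholly below 1 was found for 21 of the 36 (58.3%), against 21.2% of all measured genes. One wholly above 1 was found for 4, against 21.1% of all measured genes. Such intervals narrow as counts rise, and the list was not matched to other genes by level. The 5 genes at least 1.2-fold lower were MCM5 at 0.679-fold (0.641 to 0.719), PCNA at 0.765-fold (0.735 to 0.795), MCM6 at 0.807-fold (0.775 to 0.841), POLA1 at 0.811-fold (0.774 to 0.850) and MCM2 at 0.814-fold (0.781 to 0.848). MCM2, MCM6 and POLA1 were named after their values were seen. GINS4, a subunit gene of the replicative helicase, went the other way, with 1166 counts in the resistant and 409 counts in the parental library (3.08-fold, 2.75 to 3.46). Its complex partners GINS1, GINS2 and GINS3 had log2 ratios of -0.18, -0.03 and 0.09. The motif searched above stood before 11 of the 29 G1/S genes with a RefSeq promoter.

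Of 25 G2/M genes that the DREAM complex controls, 13 had negative and 12 had positive log2 ratios, with a median of -0.01. None was at least 1.2-fold lower, and only MKI67 and FOXM1 were at least 1.2-fold higher, at log2 ratios of 1.61 and 1.10. The shares of all measured genes were 14.6% lower and 15.9% higher. PLK1, a mitotic kinase gene, stood at 1.17-fold (1.10 to 1.25). Among 7 apoptosis genes with E2F sites the median was -0.05. BCL2L11, which encodes the death activator BIM, had 487 counts in the resistant and 147 counts in the parental library (3.58-fold, 2.97 to 4.34). APAF1, the apoptosome gene, was at 0.688-fold (0.614 to 0.771).

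**Figure D5:**
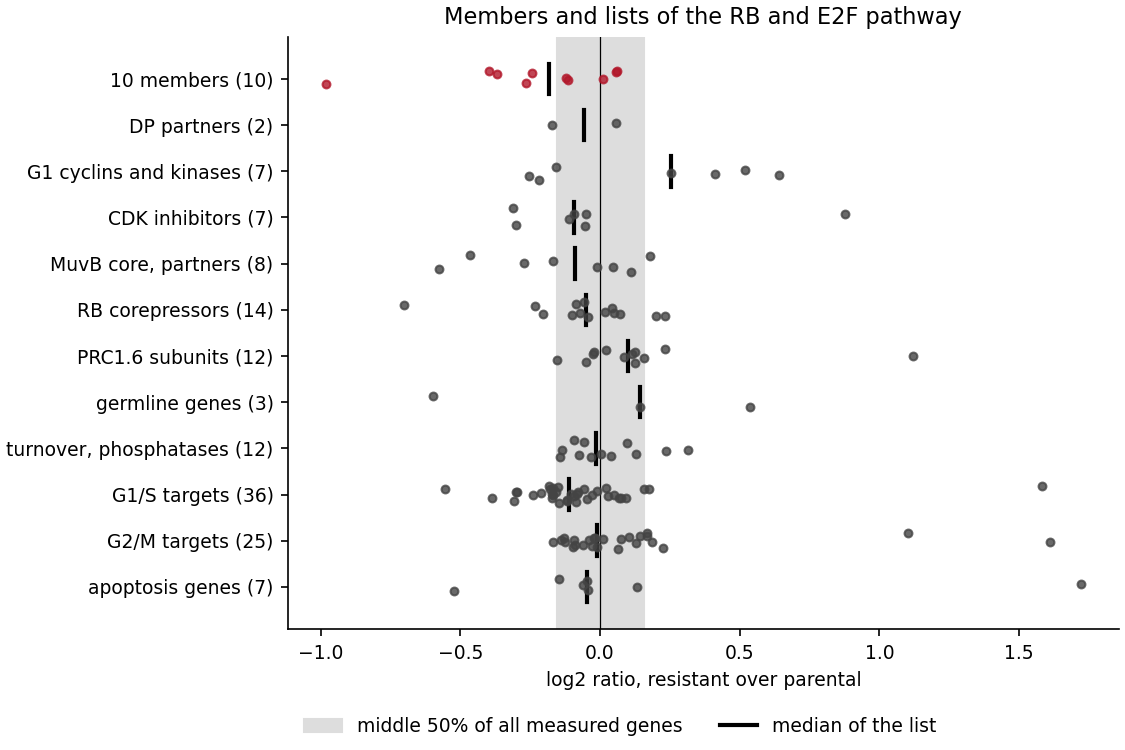
Log2 ratio of resistant over parental for the 10 members (red) and for measured genes of the 11 pathway lists (grey), with the number of genes in brackets, the list median as a black bar and the middle 50% of all measured genes as a grey band. The median of the G1 cyclins and kinases lies above the band, at 0.25, and that of the members below it, at -0.18.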

How the data were processed

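RNA was sequenced from 1 resistant and 1 parental library, grouped by their genotype labels. The authors deposited whole-number counts per gene, per the file headers. Per the submitters' processing notes, bcl2fastq 2.19, HISAT2 2.0.4 and StringTie 1.3.0 were used on GRCh38; no source used here names the annotation release or the counting settings. The authors also deposited FPKM, whose denominator was inferred from the values, and a table with their own log2 fold change. Its p-values, from 1 library against 1, were not used.

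Counts were scaled to CPM with TMM factors (edgeR 4.0.16, R 4.3.3), and no model was fitted. Each fold divides resistant by parental CPM with nothing added, with exact Clopper-Pearson 95% intervals given the sum of both counts. The log2 ratio adds 1 CPM to both libraries and understates differences of genes with few counts. Every count of genes at least 1.2-fold or 2-fold different uses this log2 ratio, not the fold. Reads copied by PCR do not count separate molecules, and no interval covers variation between cultures. Ratios and intervals were run on simulated Poisson counts, which hold no variation between cultures and no copied reads. The intervals are exact for such counts, so this run checks the code only. Exons came from GENCODE 29. Alternatives were other scalings (library totals, DESeq2 1.42.0 size factors, upper quartile), deposited FPKM, other pseudocounts, other filters, counts summed over genes sharing exons, and a 1.5-fold rule.

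Members, lists and named genes were chosen with earlier results of these data known. Named were all members, a fixed set of pathway genes, and up to 3 measured genes per list with the largest absolute log2 ratio. Others were named after their values were seen, namely CCND2, TFDP3, MCM2, MCM6, POLA1, GINS1 to GINS3 and genes near the members. An item that this rule names is not reported here.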

Additional observations from a re-analysis of the deposited data

How the results depend on the processing

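The median log2 ratio of the members stayed negative under all 10 alternatives of scaling, unit, pseudocount, filter and exon sharing, between -0.20 and -0.10. No member passed the 2-fold rule under any of them, and with a 1.5-fold rule 1 member did, E2F3. E2F3 came closest to the 2-fold rule with DESeq2 size factors, at a log2 ratio of -0.998. The number of members at least 1.2-fold lower ranged from 3 to 5. E2F8 joined with a pseudocount of 0.5 CPM, and RB1 dropped out with deposited FPKM and with a pseudocount of 5 CPM. Filters only choose which genes are kept, and no gene shared exons with a member on its strand. The filters and the summing over shared exons therefore could not move a member's value. Of 99 member values under the alternatives, with those included, 98 lay within the gene's counting interval. The exception was E2F3 at -0.88 with deposited FPKM, where adding 1 weighs more on its lower values. With FPKM, E2F8 was under the minimum of 1 and dropped out. E2F7 had a log2 ratio of -0.01 with DESeq2 size factors. All 99 list medians moved by less than 0.15, a limit wider than most of these medians themselves. Each median kept its sign. The MuvB median went from -0.09 to -0.01 with deposited FPKM. Other filters left every list median unchanged except that of the germline genes. No scaling moved the median of all genes by more than 0.02.

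No paired analysis was possible because each group has 1 library, and no replicate was left out. Depth limits E2F8 most, with under 100 counts in each library.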

Other observations

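Genes with the E2F motif before their start had log2 ratios centred near 0. Leaving out the members, 577 measured genes had one of the words TTTCCCGC, TTTCGCGC, TTTGCCGC or TTTGGCGC in the 250 bases before a RefSeq start. Their median log2 ratio was -0.01, 12.3% were at least 1.2-fold lower and 10.2% at least 1.2-fold higher. The shares of all measured genes were 14.6% lower and 15.9% higher. With both TTTCGCG and TTGGCGC there were 19 measured genes besides the members, with a median of -0.11, of which 3 were at least 1.2-fold lower and 3 at least 1.2-fold higher.

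The chromosomal surroundings of the lower members were near even. Over 17 measured genes within 1 Mb of E2F1 the median log2 ratio was -0.06, with DNMT3B lowest at -0.37. Over 25 genes around E2F2 it was -0.02, and over 11 genes around RB1 it was -0.04. The medians of the whole chromosomes were -0.01 for chromosome 6, which holds E2F3, and 0.05 for chromosome 13, which holds RB1. Of 7 pseudogenes named after the E2F genes, 5 had 0 counts in both libraries, and none had more than 6 counts.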
